A study of Mus musculus with 9 samples.

Results

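The genes described here encode carriers of hexoses or proteins that sense the sugar inside a cell. Their RNA was measured in round spermatids (RS), the haploid cells that follow meiosis in the testis, and sugar uptake was not. The 8 genes were taken by name from the 55414 genes listed: the transporters Slc2a1, Slc2a3, Slc2a5 and Slc2a8, and the sensors Txnip, Mlx, Mlxip and Mlxipl. RS from wild-type mouse testis were kept for 24 h in MEM Eagle medium supplied with glutamine, lactate, pyruvate and dialyzed serum. They received vehicle (0.15% DMSO), 24 mM oxamate with the same DMSO, or 24 mM oxamate and 0.3 mM octyl-L-2HG at a final 0.15% DMSO. Oxamate inhibits lactate dehydrogenase, and octyl-L-2HG is a cell-permeable ester of L-2-hydroxyglutarate. Poly(A) RNA was sequenced in 3 libraries per group, and the labels number them 1 to 3 (vehicle), 4 to 6 (oxamate) and 7 to 9 (both compounds). Per the study's methods, germ cells were sorted by red fluorescence and size from adult C57Bl/6 mice in which Stra8-iCre switched on a tdTomato reporter in the germ line. Those methods list the MEM Eagle medium for cultured meiotic cells and name none for RS. The sources do not say whether the 3 libraries of a group came from separate mice, so p-values measure the spread between these libraries, which may be technical.

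Hexoses cross the plasma membrane through the facilitative carriers of the Slc2 family, which differ in their sugar and in their site. Slc2a1 is the carrier of many dividing cells and of red blood cells, Slc2a3 is a high-affinity glucose carrier of neurons and sperm, Slc2a5 carries fructose, and Slc2a8 is held largely on internal membranes and is abundant in testis. Inside the cell, hexose phosphates activate MondoA (Mlxip) and ChREBP (Mlxipl), transcription factors that bind DNA with their partner Mlx. Their best known target is Txnip, an alpha-arrestin that binds thioredoxin and removes glucose carriers from the cell surface. Spermatids are known to take lactate from Sertoli cells as a main fuel, and lactate dehydrogenase is the step that turns it into pyruvate.

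The DNA through which these factors act lies close to the start site of Txnip. RefSeq promoter windows, from 250 bases before to 50 bases after the start on build GRCm38.p6, were matched for 7 of the 8 genes, all but Slc2a3, which was therefore not searched. They are shown for the target Txnip, the partner Mlx and the sensor Mlxip, the last being the sensor whose RNA changed. Capitals mark matches to the carbohydrate response element, searched as CACGNG, 5 bases of any kind and CACGNG again, or to the E-box CACGTG, each on both strands.
Txnip, chr3:96557707-96558006, + strand: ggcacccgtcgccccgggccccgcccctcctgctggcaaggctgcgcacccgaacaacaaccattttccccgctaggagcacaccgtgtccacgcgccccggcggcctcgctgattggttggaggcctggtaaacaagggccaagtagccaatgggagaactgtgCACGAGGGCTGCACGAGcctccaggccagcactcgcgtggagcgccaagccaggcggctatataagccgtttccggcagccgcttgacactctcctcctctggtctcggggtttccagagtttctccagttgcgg
Mlx, chr11:101087040-101087339, + strand: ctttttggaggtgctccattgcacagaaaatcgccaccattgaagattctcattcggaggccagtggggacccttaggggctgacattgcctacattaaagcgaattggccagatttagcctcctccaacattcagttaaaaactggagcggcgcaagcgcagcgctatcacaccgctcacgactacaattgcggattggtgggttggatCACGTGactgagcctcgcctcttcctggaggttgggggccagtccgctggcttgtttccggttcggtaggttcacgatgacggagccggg
Mlxip, chr5:123394548-123394847, + strand: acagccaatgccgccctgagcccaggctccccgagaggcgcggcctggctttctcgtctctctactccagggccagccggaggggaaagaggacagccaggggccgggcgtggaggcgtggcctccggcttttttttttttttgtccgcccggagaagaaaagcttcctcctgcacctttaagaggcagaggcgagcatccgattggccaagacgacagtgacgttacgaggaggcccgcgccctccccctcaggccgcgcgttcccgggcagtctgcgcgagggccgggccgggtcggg
The element of Txnip spans bases -85 to -69 from its start, and 16 of 32851 promoter windows (0.0487%) held a match of this form. The E-box was found in 7.15% of windows, among them that of Mlx and 1 of the 2 windows of Mlxipl. An E-box and the paired element can overlap where both boxes read CACGTG. The Mlxip window held neither motif.

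All 8 genes passed the filter of at least 10 counts summed over the libraries, which 25128 genes passed, but 2 of them did so with few reads. Between 32339533 and 39888396 reads were counted per library, and no 2 libraries of a group agreed within sampling noise. The order of levels between genes was taken from normalized counts (counts divided by the library's size factor) per kb of the longest annotated transcript. With vehicle, Slc2a5 stood highest at 15271 ± 717 (SD, n = 3), followed by Slc2a3 at 1698 ± 72.4 and Slc2a8 at 495 ± 75.2. The sensors were lower, with Txnip at 73.9 ± 7.47, Mlx at 57.5 ± 3.74 and Mlxip at 22.6 ± 2.15. Mlxipl, at 0.842 ± 0.122, and Slc2a1, at 0.281 ± 0.00909, came last. The fructose carrier and the glucose carrier Slc2a3 stood above the other transporters, and the levels of neighbours in this order did not overlap under vehicle. With oxamate, Txnip (63.0 to 72.1 per kb) and Mlx (58.0 to 64.7 per kb) overlapped. With both compounds Mlx (66.9 to 78.6 per kb) lay above Txnip (62.0 to 65.9 per kb). Mlxipl and Slc2a1 overlapped with oxamate and under both compounds.

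**Figure D1:**
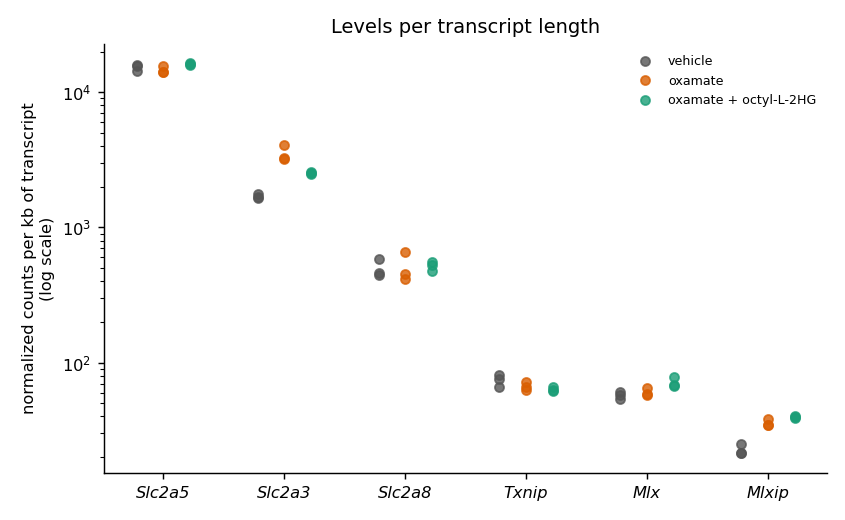
Normalized counts per kb of the longest annotated transcript, on a log axis, for the 6 genes with more than a few reads; each point is 1 library, coloured by group. Slc2a5 lies above Slc2a3 in all 9 libraries, and the 3 groups of Slc2a3 points are separate from each other.

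Oxamate raised Slc2a3 and Mlxip, and no other gene of the 8 was called in that comparison. A gene was called at an adjusted p under 0.05 in edgeR's quasi-likelihood test, Benjamini-Hochberg adjusted over all genes tested. For oxamate against vehicle 2 of the 8 genes were called, both higher, beside 5.19% of all genes tested (3.97% higher and 1.22% lower). When octyl-L-2HG was added to oxamate 1 of the 8 was called, as lower, beside 11.2% of all genes (3.18% higher and 8.06% lower). For both compounds against vehicle 2 of the 8 were called, both higher, beside 18.0% (7.48% higher and 10.6% lower). Of genes with a mean of at least 100 normalized counts, which 6 of the 8 are, 9.67%, 19.8% and 29.5% were called in these comparisons. The test of any difference among the 3 groups called 2 of the 8 and 19.8% of all genes tested. Slc2a3 was the gene called in every comparison, and Mlxip was called in those against vehicle. Their courses were not alike: Slc2a3 was highest with oxamate and came part of the way back with octyl-L-2HG, whereas Mlxip had no called change when octyl-L-2HG was added to oxamate.

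**Figure D2:**
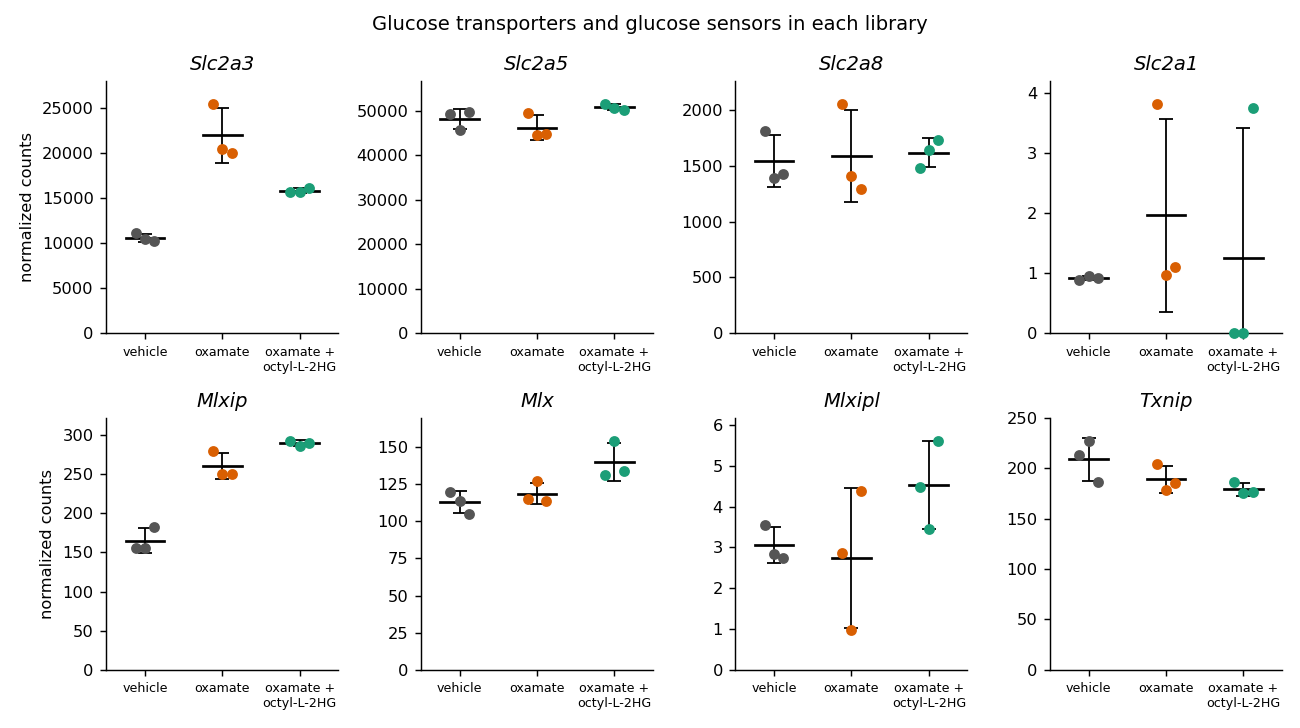
Normalized counts of the 8 genes in each library, with the group mean (bar) and SD (whiskers) of 3 libraries; every vertical axis starts at 0 and has its own scale. The 3 oxamate points of Slc2a3, from 19988 to 25495, lie above all other libraries, and for Mlxip both treated groups lie above vehicle.

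Slc2a3 (ENSMUSG00000003153), the high-affinity glucose carrier, had 11124, 10489 and 10247 normalized counts in the vehicle libraries. It had 25495, 20497 and 19988 in oxamate libraries 4, 5 and 6. With oxamate and octyl-L-2HG it had 15685, 15659 and 16173. The 3 groups did not overlap, and the treated groups were ordered with oxamate highest; over all genes tested, the libraries did not overlap for 21.3% between oxamate and vehicle, 28.8% between both compounds and oxamate, and 36.5% between both compounds and vehicle. The rise with oxamate was 2.08-fold (95% interval 1.85 to 2.33), a log2 fold change of 1.06 (SE 0.08, adjusted p = 4.86e-08 in edgeR's quasi-likelihood test). It was the 5th smallest p of 25128 genes, and the 10th largest rise among the 10715 genes with a mean of at least 100 normalized counts. Octyl-L-2HG lowered Slc2a3 by 0.50 on the log2 scale against oxamate alone (SE 0.08, adjusted p = 0.000262 in the same test), to 0.707 of the oxamate level. With both compounds it remained 1.47-fold above vehicle (95% interval 1.31 to 1.65, adjusted p = 3.42e-05 in edgeR's quasi-likelihood test). Of the mean rise of 11374 normalized counts with oxamate, 5219 (45.9%) were still present with octyl-L-2HG.

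Oxamate library 4, in which Slc2a3 was highest, stood apart from libraries 5 and 6 over all genes. The chi-square per degree of freedom between the counts of a pair of libraries was 16.7 and 20.7 for library 4 against the others, 1.98 between libraries 5 and 6, and 2.27 to 10.7 in the vehicle pairs and the pairs under both compounds. Without library 4 the oxamate rise of Slc2a3 was 0.93 on the log2 scale, and it was called in every fit that left out 1 library. Against oxamate, the change with octyl-L-2HG was then -0.37 and was also called.

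Mlxip (ENSMUSG00000038342), which encodes MondoA, had 155, 156 and 183 normalized counts under vehicle. The oxamate libraries had 280, 250 and 251. With both compounds the values were 293, 286 and 290. Every treated library lay above every vehicle library, and each library under both compounds lay above each oxamate library. The rise with oxamate was 1.58-fold (95% interval 1.37 to 1.84), a log2 fold change of 0.66 (SE 0.10, adjusted p = 0.000371 in edgeR's quasi-likelihood test). With both compounds Mlxip was 1.73-fold above vehicle (log2 fold change 0.79, 95% interval 0.58 to 1.00, adjusted p = 1.11e-05 in the same test). Between both compounds and oxamate the log2 fold change of 0.13 was not called (95% interval -0.08 to 0.33, adjusted p = 0.491 in edgeR's quasi-likelihood test).

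Mlx (ENSMUSG00000017801), the DNA-binding partner of Mlxip, had 120, 114 and 105 normalized counts under vehicle, 115, 127 and 114 with oxamate, and 131, 154 and 134 under both compounds. The libraries under both compounds lay above all others, but no comparison was called. For both compounds against vehicle the log2 fold change was 0.28 (95% interval 0.03 to 0.53, unadjusted p = 0.0288, adjusted p = 0.115 in edgeR's quasi-likelihood test), and for oxamate against vehicle it was 0.08 (95% interval -0.18 to 0.33). Within a library, the count of Mlxip divided by that of Mlx, a ratio that no scaling between libraries changes and that, without a length correction, compares groups and not the levels of the genes, was 1.296, 1.375 and 1.739 under vehicle. It was 2.43, 1.97 and 2.20 with oxamate and 2.23, 1.85 and 2.17 under both compounds, above vehicle in all 6 treated libraries. Mlx overlaps Psmc3ip on the opposite strand in the GENCODE M21 annotation, a gene with a mean of 4772 normalized counts under vehicle, and the strand setting of the counting is not given in the sources used here, so that reads of the overlap may have been dropped or assigned to either gene.

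Mlxipl (ENSMUSG00000005373), which encodes ChREBP, was at the limit of detection, with 4, 3 and 3 reads in the vehicle libraries, 3, 1 and 4 with oxamate and 4, 3 and 6 under both compounds. No difference was detectable at this depth. Of the sensors MondoA and ChREBP, Mlxip was the one with more than a few reads.

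Txnip (ENSMUSG00000038393), the gene with the carbohydrate response element shown above, had 213, 227 and 186 normalized counts under vehicle. It had 204, 178 and 185 with oxamate and 186, 175 and 176 under both compounds. The ranges of the 3 groups overlapped in each comparison, and none was called. Oxamate against vehicle gave a log2 fold change of -0.14 (95% interval -0.36 to 0.09, adjusted p = 0.573 in edgeR's quasi-likelihood test). For both compounds against vehicle it was -0.24 (95% interval -0.47 to -0.01, unadjusted p = 0.0381, adjusted p = 0.139 in the same test). Its means under treatment, 189 and 179, lay below the 209 of vehicle. Gm15441 lies on the opposite strand of Txnip and had 333, 310 and 293 normalized counts in the 3 groups on average, so its reads cannot be fully told apart from those of Txnip without the strand setting.

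Slc2a5 (ENSMUSG00000028976), the fructose carrier, had 49213, 45636 and 49832 normalized counts under vehicle, 49504, 44461 and 44730 with oxamate and 51544, 50713 and 50131 under both compounds. The libraries under both compounds lay above all others, by a small margin. The log2 fold change was -0.06 for oxamate against vehicle (95% interval -0.18 to 0.07) and 0.11 for both compounds against oxamate (95% interval -0.02 to 0.24), with adjusted p = 0.716 and 0.307 in edgeR's quasi-likelihood test. Without oxamate library 4, the second difference was 0.17 and was called, at an adjusted p of 0.0279 in the same test. For both compounds against vehicle the log2 fold change was 0.05 (95% interval -0.08 to 0.18).

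Slc2a8 (ENSMUSG00000026791), the carrier of internal membranes, had 1816, 1392 and 1430 normalized counts under vehicle, 2059, 1414 and 1290 with oxamate and 1481, 1647 and 1735 under both compounds. The groups overlapped throughout. Between oxamate and vehicle its log2 fold change was 0.05 (95% interval -0.24 to 0.33, adjusted p = 0.915 in edgeR's quasi-likelihood test). The sign turned without any one of 3 libraries: the value was -0.19 without oxamate library 4, which had the highest count, -0.020 without vehicle library 2 and -0.017 without vehicle library 3. For both compounds against oxamate it was 0.0022 (95% interval -0.28 to 0.29).

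Slc2a1 (ENSMUSG00000028645) was counted 13 times in all: 1 read in each vehicle library, 4, 1 and 1 with oxamate, and 0, 0 and 4 under both compounds. The libraries at 0 allow a level of up to 0.0886 and 0.0928 CPM, from the limit of 3 reads that a count of 0 leaves, which covers counting error only. No fold change is given for so few reads.

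**Figure D3:**
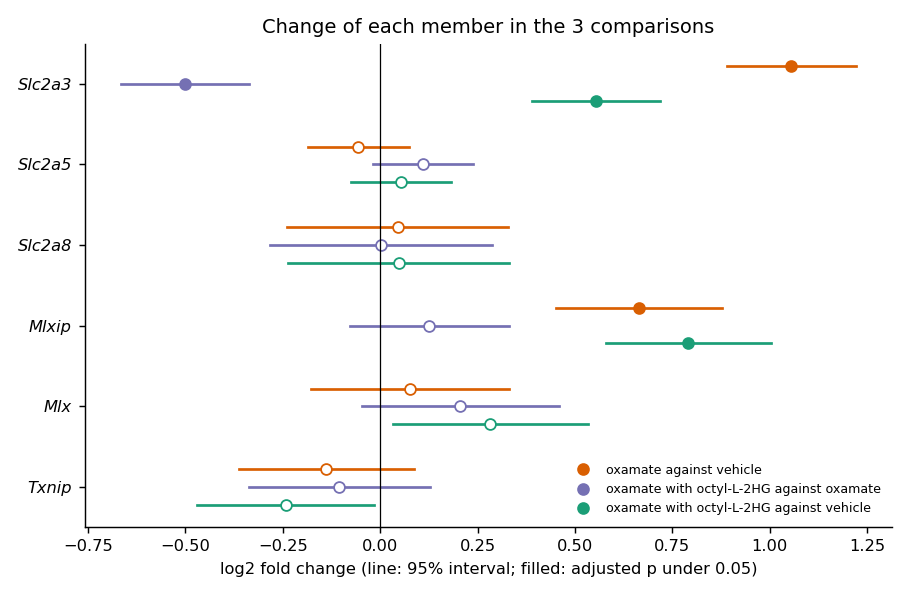
Log2 fold changes of the 6 genes with enough reads in the 3 comparisons, with 95% intervals as lines; filled points passed an adjusted p of 0.05 over all genes tested. Slc2a3 is filled in all 3 comparisons and Mlxip in those against vehicle, at 0.66 and 0.79.

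The share of Slc2a3 among Slc2 reads was highest in the oxamate libraries. As a share of all reads counted on the 8 tested Slc2 genes, a measure that is not corrected for transcript length and is used only to compare groups, Slc2a3 took 17.6% ± 0.83 (SD, n = 3) under vehicle, 31.4% ± 1.48 with oxamate and 23.2% ± 0.493 under both compounds. The share was 17.9%, 18.2% and 16.7% in the vehicle libraries, 33.1%, 30.9% and 30.3% in the oxamate libraries, and 22.8%, 23.0% and 23.8% under both compounds. Slc2a5 took 79.8% ± 1.01, 66.3% ± 1.85 and 74.4% ± 0.692 in the same order. The 3 groups did not overlap in either share. Slc2a3 and Slc2a5 together took nearly all of these reads, so a rise in one share lowers the other. The separate Slc2a5 shares therefore restate the course of Slc2a3 and are no second result, since Slc2a5 itself was not called.

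**Figure D4:**
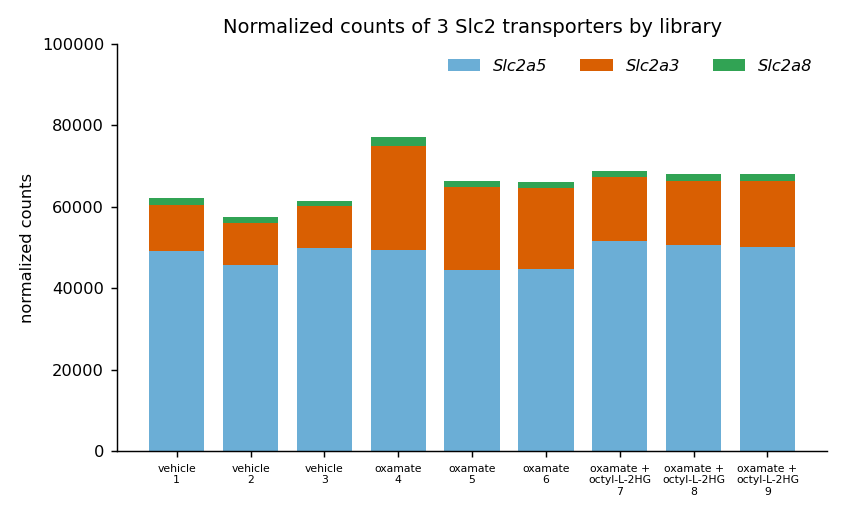
Normalized counts of Slc2a5, Slc2a3 and Slc2a8 stacked for each of the 9 libraries, with the library number under each bar. The Slc2a3 part of the bar is largest in oxamate libraries 4 to 6, while the Slc2a5 part stays between 44461 and 51544 normalized counts.

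The other 8 hexose carriers of the Slc2 family were barely transcribed: 4 were tested, each with a mean under 10 normalized counts, and none was called in a comparison. A list of 14 other sugar carriers (sodium-coupled Slc5 carriers, Slc37, Slc45 and Slc50a1) had 13 tested genes and 3 with a mean of at least 100 normalized counts. For oxamate against vehicle 0 of the 13 were higher and 1 lower, beside 3.97% and 1.22% of all genes. For both compounds against vehicle 1 was higher and 2 lower, beside 7.48% and 10.6%, so that the 3 calls are near the share of 18.0% over all genes. The median log2 fold change of the 13 genes was -0.16 with oxamate and -0.26 under both compounds against vehicle, beside -0.01 and -0.05 over all genes tested. Slc5a4b, a member of the sodium and glucose cotransporter family, had 649, 559 and 585 normalized counts under vehicle, 489, 453 and 474 with oxamate and 358, 424 and 447 under both compounds. The 3 groups did not overlap, vehicle highest, though the step from oxamate to both compounds was not called. Its fall against vehicle was 0.34 on the log2 scale with oxamate (95% interval -0.53 to -0.14, adjusted p = 0.0349 in edgeR's quasi-likelihood test) and 0.56 under both compounds (adjusted p = 0.000188). The call with oxamate was lost without any one of vehicle libraries 1, 2 or 3, oxamate libraries 5 or 6, or library 8, and in a fit of the 2 groups alone, with adjusted p between 0.062 and 0.146, whereas the call under both compounds held in all 17 alternatives. Slc45a4 was raised under both compounds against vehicle, by 0.30 (adjusted p = 0.0183), a call lost without libraries 2, 3, 8 or 9 (adjusted p between 0.0507 and 0.0891) and with scaling by total counts (adjusted p = 0.052). The other lower gene was Slc37a2, with a mean of 75.6 normalized counts and named after its values were seen, at -0.48 (adjusted p = 0.0236), lost without libraries 1, 3, 7 or 8, without a filter on low counts (adjusted p = 0.054) and in DESeq2 (adjusted p = 0.0737).

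Of 10 genes for sugar phosphorylation, none was called for oxamate against vehicle or for octyl-L-2HG against oxamate. Hk1, a hexokinase with a mean of 59909 normalized counts, had a log2 fold change of 0.06 with oxamate (95% interval -0.07 to 0.19). Of 6 genes of fructose and sorbitol metabolism, the pathway that meets the sugar of Slc2a5, none was called in a comparison. Sord, the sorbitol dehydrogenase that forms fructose, had a log2 fold change of -0.09 with oxamate (95% interval -0.22 to 0.03) and -0.01 under both compounds against vehicle (95% interval -0.14 to 0.11). Hk1 and Sord were named after their values were seen.

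Among partners of Mlx and Max, oxamate raised Mxd1, Mnt and Mga. This list holds the basic helix-loop-helix proteins that share Mlx or Max as a partner and compete for E-boxes. Of 10 listed genes 7 were tested, and with oxamate 3 were higher and 0 lower (background 3.97% higher), with a median log2 fold change of 0.05. Of the 7, 6 had a mean of at least 100 normalized counts, and of all such genes 9.67% were called in either direction. The list was chosen with earlier results of these data known. The 3 higher genes encode proteins that repress targets of Myc. Mxd1 had 3587, 3326 and 3703 normalized counts under vehicle, 4499, 4382 and 4554 with oxamate and 4636, 4325 and 4336 under both compounds. All treated libraries lay above vehicle, by a log2 fold change of 0.34 with oxamate (adjusted p = 0.00206 in edgeR's quasi-likelihood test) and 0.30 under both compounds (adjusted p = 0.0019), and both calls held in all 17 alternatives. Mnt rose by 0.30 with oxamate (adjusted p = 0.00936) and was 0.22 above vehicle under both compounds (adjusted p = 0.0296). The first was lost without library 5 (adjusted p = 0.0742) and with the length and GC correction described below (adjusted p = 0.176), and the second without libraries 1, 2, 7 or 8 (adjusted p between 0.067 and 0.129) and with total counts (adjusted p = 0.132). Mga had 1090, 1298 and 1366 normalized counts under vehicle, 1353, 1634 and 1695 with oxamate and 2074, 2031 and 2015 under both compounds. Its vehicle and oxamate libraries overlapped, and the call for oxamate (0.32, adjusted p = 0.0341 in edgeR's quasi-likelihood test) was lost in 9 of 17 alternatives: without library 1, 2, 5, 6, 7, 8 or 9 (adjusted p between 0.0621 and 0.167), with total counts (adjusted p = 0.0564) and in a fit of the 2 groups alone (adjusted p = 0.118). With both compounds Mga was 0.68 above vehicle (adjusted p = 1.03e-05) in all alternatives, and 0.36 above oxamate (adjusted p = 0.00912), a call lost without library 7 (adjusted p = 0.0531).

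Of 17 listed names of MondoA and ChREBP targets 15 were tested, some of them shared with the lists above, and 1 was higher with oxamate (3.97% of all genes), 1 lower with octyl-L-2HG against oxamate (8.06% of all genes) and 1 higher under both compounds against vehicle (7.48% of all genes). These counts of 1 are near the shares over all genes. The median log2 fold change was 0.18, -0.05 and 0.02 in these comparisons, beside -0.01, -0.04 and -0.05 over all genes tested. Arrdc4, an alpha-arrestin that like Txnip is a known MondoA target, had a mean of 85.8 normalized counts under vehicle, 89.0 with oxamate and 71.5 under both compounds, and no comparison was called; it was named after its values were seen. The gene that rose with oxamate and fell with octyl-L-2HG was Acacb, a mitochondrial acetyl-CoA carboxylase, with only 8.88, 9.48 and 8.24 normalized counts under vehicle, 29.5, 29.8 and 24.1 with oxamate and 14.6, 10.4 and 12.2 under both compounds, likewise named after its values were seen. It rose 3.14-fold (95% interval 2.15 to 4.67, adjusted p = 0.000603 in edgeR's quasi-likelihood test) and then fell to 0.438 of the oxamate level (adjusted p = 0.00415). For both changes of Acacb DESeq2 gave no adjusted p. Klf10, a transcription factor that glucose induces in liver, was 0.47 above vehicle under both compounds (adjusted p = 0.0293), a call lost without libraries 2, 7 or 8 (adjusted p between 0.073 and 0.256), with scaling by total counts (adjusted p = 0.0605) and with a residual component as covariate (adjusted p = 0.0794). Acaca, Fasn, Elovl6 and Acly, enzymes of fatty acid synthesis, were not called in any comparison; these 4 were picked after seeing their values.

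Among 5 other alpha-arrestins, none was called with oxamate or with octyl-L-2HG against oxamate, and Arrdc2 and Arrdc3 were higher under both compounds against vehicle, beside 7.48% of all genes tested. The remaining members were lower in that comparison and not called. The median log2 fold change of the 5 there was -0.19, beside -0.05 over all genes tested. Arrdc3 differed by 0.24 (adjusted p = 0.0142 in edgeR's quasi-likelihood test), a call lost without libraries 8 or 9 (adjusted p = 0.0739 and 0.0528) and with total counts (adjusted p = 0.0792). Arrdc2, with a mean of 51.3 normalized counts and named after its values were seen, differed by 0.62 (adjusted p = 0.0253), and lost its call without libraries 1, 2, 7, 8 or 9. In the thioredoxin system, to which Txnip binds, 2 of 10 tested genes were higher with oxamate and none lower, beside 3.97% and 1.22% of all genes tested. Of the 10, 8 had a mean of at least 100 normalized counts, and of all such genes 9.67% were called in either direction. Txnrd1, the cytosolic thioredoxin reductase, had 1150, 1134 and 1118 normalized counts under vehicle, 1423, 1379 and 1416 with oxamate and 1497, 1496 and 1501 under both compounds. Its groups were separate, and it was 0.31 above vehicle with oxamate (adjusted p = 0.00627) and 0.38 under both compounds (adjusted p = 0.000352), called in all 17 alternatives. The other was Txn1, with a mean of 9.25 normalized counts and named after its values were seen, which rose by 1.42 (adjusted p = 0.0164) and fell by 1.31 (adjusted p = 0.0179); the first call was lost without libraries 2, 3 or 6 and the second without libraries 6, 7 or 8, and DESeq2 gave no adjusted p for either. Against oxamate alone, Txndc8, a thioredoxin of spermatids, was 0.26 lower with octyl-L-2HG (adjusted p = 0.0112) and Nme8 was 0.26 higher (adjusted p = 0.0403). The call of Txndc8 was lost without libraries 5, 7 or 8 (adjusted p between 0.0595 and 0.0751), and that of Nme8 without libraries 4, 5, 7, 8 or 9 (adjusted p between 0.0602 and 0.147) and with total counts (adjusted p = 0.113). Against vehicle, Txndc8 was 0.32 lower under both compounds (adjusted p = 0.00122), a call that held in 16 of 17 alternatives.

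**Figure D5:**
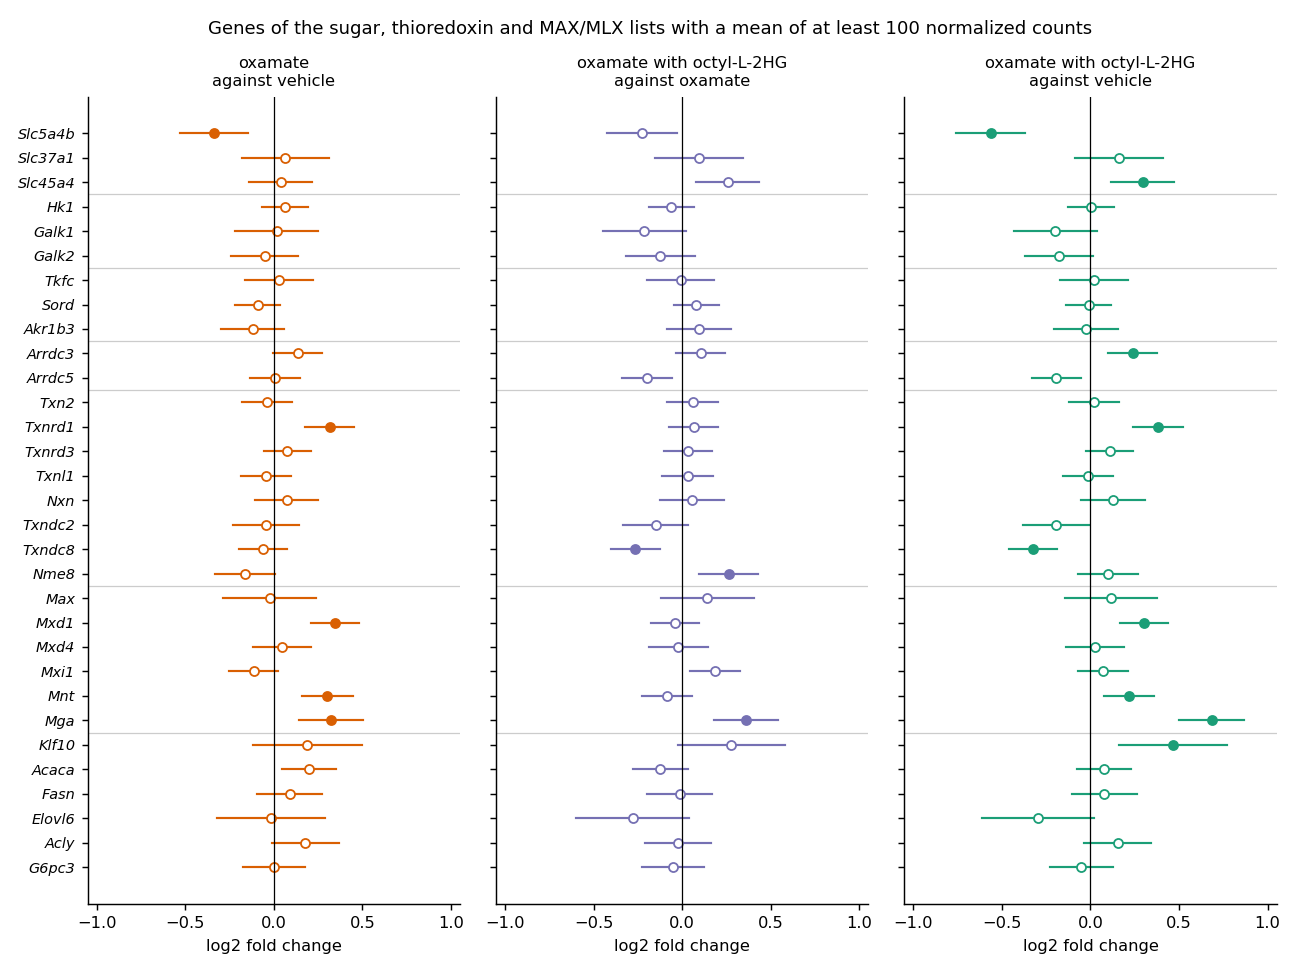
Log2 fold changes with 95% intervals of the 31 listed genes with a mean of at least 100 normalized counts; filled points passed an adjusted p of 0.05, and grey lines separate, from the top, other carriers, sugar phosphorylation, fructose and sorbitol, alpha-arrestins, thioredoxin system, Max and Mlx partners, and MondoA or ChREBP targets. Mxd1, Mnt and Mga are filled to the right of 0 against vehicle in both treated groups, and Slc5a4b to the left.

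Other genes shared the courses of Slc2a3 and Mlxip. By Pearson's r of log2(normalized count + 1) over the 9 libraries, which share treatment and scaling, the 3 most like Slc2a3 among 10714 genes were Ythdf1 (r = 0.990), Socs7 (r = 0.984) and Pheta2 (r = 0.981). Ythdf1, a reader of m6A in RNA, had means of 422, 659 and 545 normalized counts in the vehicle, oxamate and combined groups. Its rise with oxamate was 1.57-fold, smaller than the 2.08-fold of Slc2a3. The 3 most like Mlxip were Pitpnm2 (r = 0.994), Srrm2 (r = 0.991) and Sik2 (r = 0.990). Pitpnm2 had means of 2445, 5027 and 5878 normalized counts and rose 2.06-fold with oxamate. Sik2, a kinase of the AMPK family, had means of 1537, 2055 and 2258.

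The labelled cell type was checked against markers. All 12 markers of RS had a mean of at least 100 normalized counts, and their summed level was 90433 to 93048 under vehicle, 87456 to 89870 with oxamate and 85102 to 88423 under both compounds, higher in each vehicle library than in the treated ones. The sum hides opposite courses. The means of Prm1 (4915, 3591 and 2919 in the 3 groups), Prm2, Tnp1, Tnp2, Tssk1, Tssk6 and Izumo1 fell at both steps. Those of Acrv1 (9015, 9326 and 10854), Acr, Spaca1 and Spaca7 rose at both steps, and that of Catsper1 rose with oxamate. Of the 12, 4 were lower and 1 higher for oxamate against vehicle, beside 1.22% and 3.97% of all genes. Under both compounds 5 were lower and 0 higher than with oxamate, beside 8.06% and 3.18%, and against vehicle 6 were lower and 3 higher, beside 10.6% and 7.48%. Of 8 spermatocyte markers 7 were also at a mean of 100 or more, and the list summed to 9472 to 11581, 9013 to 10109 and 10750 to 11207 in the 3 groups. The 8 Sertoli markers summed to 46.2 to 53.1 under vehicle, 34.6 to 45.7 with oxamate and 34.6 to 48.3 under both compounds, with Sox9 and Wt1 under 2 in each group. In the same order of groups, the 5 Leydig markers summed to 28.4 to 38.2, 19.7 to 27.6 and 32.3 to 40.3, and the 4 myoid markers to 39.8 to 42.1, 36.2 to 49.3 and 35.7 to 43.8. The 7 spermatogonial markers summed to 242 to 260, 275 to 288 and 266 to 279. The 5 macrophage markers summed to 96.8 to 123, 72.4 to 89.5 and 73.0 to 104, with Lyz2 at 0. Vehicle and oxamate libraries thus did not overlap in the Sertoli, Leydig, macrophage and endothelial sums, lower with oxamate, or in the spermatogonial sum, higher with oxamate. No marker of these types was called for oxamate against vehicle, and 21.3% of all genes tested likewise did not overlap. Clu, Adgre1 and Gfra1 made up the largest part of the Sertoli, macrophage and spermatogonial sums. Some markers went against their sum, such as Uchl1 (mean 49.8 under vehicle, 40.0 with oxamate) and Pecam1 (23.4 and 32.4). The 3 endothelial markers summed to 430 to 483, 401 to 418 and 299 to 352, mostly from Vwf, and the 4 red blood cell markers to at most 0.962. The part of these shifts in the changes of Slc2a3 and Mlxip was not tested, and in bulk RNA fewer cells of a type and less RNA per cell cannot be told apart. Across 10696 genes with a mean of at least 100 normalized counts, the log2 fold change for oxamate was correlated with transcript length (Spearman's rho 0.34 across genes, which are not independent replicates). Slc2a3 (6253 bases) and Mlxip (7303 bases) have long transcripts. With a correction for length and GC content, chosen after the data were seen, Slc2a3 changed by 0.97 and Mlxip by 0.54 on the log2 scale with oxamate, both called (adjusted p = 0.000527 and 0.000482). Under this correction 4 calls for both compounds against vehicle were lost. The log2 fold change went from 0.30 to 0.16 for Slc45a4 (adjusted p = 0.121), from 0.22 to 0.09 for Mnt (adjusted p = 0.463) and from -0.32 to -0.13 for Txndc8 (adjusted p = 0.0942), and less far, from 0.47 to 0.41, for Klf10 (adjusted p = 0.105).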

How the data were processed

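Poly(A) RNA of RS was sequenced for 3 groups of 3 libraries. The authors trimmed reads with cutadapt 2.10, aligned them with TopHat2 2.1.1 to GRCm39 with Ensembl annotation, and deposited the counts per gene of HTSeq 2.01. The printed levels are their deposited signal values, normalized counts obtained by dividing each count by a size factor from DESeq2 1.36.0. Of 55414 genes listed, 49164 had counts.

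Genes with at least 10 counts summed (25128) entered edgeR 4.0.16 under R 4.3.3 (TMM, all 9 libraries in one robust quasi-likelihood fit, group as the only term), with Benjamini-Hochberg adjustment over all genes and a threshold of 0.05. The scripts were tested on simulated data. Alternatives were DESeq2 1.42.0, other scalings, filters and thresholds, fits of 2 groups, and each library left out. Transcript lengths came from GENCODE M21 (GRCm38), matched by identifier for 99.6% of genes. Promoters came from RefSeq (GRCm38.p6), and no coordinates were carried between builds. The genes and lists were chosen with earlier results of these data known. Named beside the 8 genes are, of each list, up to 4 called genes with a mean of at least 100 normalized counts, and the 3 genes most correlated with each called gene. Genes outside this rule, other than cell type markers and overlapping genes, are marked in the text as named after their values were seen. One result for sugar phosphorylation is not reported here.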

Additional observations from a re-analysis of the deposited data

How the results depend on the processing

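No paired analysis was made because the groups share no replicate numbers. The sources do not say whether libraries of different groups came from one cell preparation. The calls of Slc2a3 in all comparisons and of Mlxip against vehicle were kept in each of 17 alternatives, with log2 fold changes with oxamate from 0.930 to 1.125 and from 0.54 to 0.74. Txnip was called for both compounds against vehicle with the residual component below (-0.24, adjusted p 0.0498 in edgeR's quasi-likelihood test, against 0.0498 to 0.402 over all alternatives). Of the 8 genes, 2 were called for oxamate against vehicle under each alternative, and for both compounds against oxamate 1 to 2 when each library was left out and 2 with a residual component as covariate (added after the data were seen); the added gene was Slc2a5. At an unadjusted p under 0.05, 4 were called for both compounds against vehicle. Over the 65 tested list genes, 7, 5 and 12 were called in the 3 comparisons and 13 for any difference; at an adjusted p under 0.01 the first 3 were 4, 2 and 6, at an unadjusted p under 0.05 the first 2 were 11 and 13, and with the residual component all were 11, 12, 19 and 21. Without a filter, both compounds against oxamate gave 8. Leaving out each library gave 4 to 9, 1 to 9, 6 to 14 and 9 to 19. The fold changes that turned sign were small and uncalled. With total counts, Slc2a5 was at -0.0097 (both compounds against vehicle), and Slc2a8 at -0.038 (against oxamate) and -0.014 (against vehicle). With the length and GC correction Slc2a5 was at -0.0196 and Slc2a8 at -0.016 for both compounds against vehicle, and Slc2a8 at -0.047 for oxamate. With each library left out, Slc2a8 ranged from -0.19 to 0.18, from -0.13 to 0.24 and from -0.017 to 0.18 in the 3 comparisons. The causes were not tested. Depth limits Slc2a1 and Mlxipl, for which no fold change is given.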
